A study of Mus musculus with 12 samples.

Results

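The genes described here are 34 members of the hypoxia response and of glycolysis. They are 16 targets of the hypoxia-inducible factors (HIF) and 18 genes of glucose breakdown, counting the lactate carrier Slc16a3. They were chosen by gene symbol from the 17875 genes listed in every library, and all 34 were among the 13453 genes with enough counts to be tested. RNA was sequenced from subcutaneous tumours of colorectal cancer in mice, with 3 libraries in each of 4 groups. The control group carried the tumour only, the stress group carried the tumour under chronic stress, and the remaining groups carried the tumour under the same stress with a mixed herbal preparation, Xiao-chai-hu decoction, given at a low or a high dose. All 4 groups thus carried the tumour, and 3 of them were stressed. No group received the decoction without stress. The labels used here give no tumour cell line, mouse strain, sex, age, stress procedure or dose in numbers. They number the 3 libraries of each group without naming animals, so every p-value below measures only the spread between these libraries, which may be technical.

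When oxygen is plentiful, prolyl hydroxylases mark the HIF alpha subunits for destruction through the von Hippel-Lindau protein. When oxygen falls, the alpha subunit persists, pairs with Arnt and binds short hypoxia response elements in DNA, switching on genes for vessel growth, glucose uptake, glycolysis, acid export and matrix modification. Solid tumours often hold poorly perfused regions, and many also run glycolysis in the presence of oxygen.

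The hypoxia response element has a short core, and promoter stretches of 6 members are printed to show where its letters occur in genes whose values are given in full below. Each stretch covers the 250 bases before a transcription start in RefSeq on GRCm38.p6, read 5′ to 3′ on the strand of the gene. Capitals mark the core motifs ACGTG and GCGTG, searched on both strands, so that a match to the opposite strand reads CACGT or CACGC. Matches that overlap run together. The starts used for Ankrd37, Ldha and Pfkfb4 lie inside the span given for the gene.
Ankrd37, chr8:45999851-46000100, minus strand: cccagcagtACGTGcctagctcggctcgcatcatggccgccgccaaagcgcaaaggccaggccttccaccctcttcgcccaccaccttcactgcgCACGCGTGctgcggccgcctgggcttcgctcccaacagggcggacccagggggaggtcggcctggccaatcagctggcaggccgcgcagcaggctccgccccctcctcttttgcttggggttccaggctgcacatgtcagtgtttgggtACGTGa
Slc2a1, chr4:119108495-119108744, plus strand: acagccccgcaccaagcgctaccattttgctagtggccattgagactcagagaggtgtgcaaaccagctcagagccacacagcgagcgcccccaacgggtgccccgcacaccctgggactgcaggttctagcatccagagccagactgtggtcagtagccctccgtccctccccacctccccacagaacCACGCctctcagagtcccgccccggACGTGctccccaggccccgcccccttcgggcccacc
Pgk1, chrX:106186850-106187099, plus strand: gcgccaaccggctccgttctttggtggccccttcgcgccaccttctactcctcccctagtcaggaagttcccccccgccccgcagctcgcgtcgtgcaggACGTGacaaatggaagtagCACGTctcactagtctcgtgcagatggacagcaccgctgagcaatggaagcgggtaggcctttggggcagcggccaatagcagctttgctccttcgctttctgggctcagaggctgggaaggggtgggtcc
Ldha, chr7:46845554-46845803, plus strand: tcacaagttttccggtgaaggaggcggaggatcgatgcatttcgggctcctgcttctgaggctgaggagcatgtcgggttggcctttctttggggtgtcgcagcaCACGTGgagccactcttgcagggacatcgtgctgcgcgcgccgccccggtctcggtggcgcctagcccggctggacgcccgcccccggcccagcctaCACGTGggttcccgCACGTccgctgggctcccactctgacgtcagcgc
Tpi1, chr6:124814159-124814408, minus strand: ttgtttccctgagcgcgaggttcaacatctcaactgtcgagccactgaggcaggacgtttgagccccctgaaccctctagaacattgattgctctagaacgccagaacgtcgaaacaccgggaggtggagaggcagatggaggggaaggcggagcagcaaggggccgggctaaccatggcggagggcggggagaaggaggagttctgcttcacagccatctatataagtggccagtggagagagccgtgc
Pfkfb4, chr9:108991652-108991901, plus strand: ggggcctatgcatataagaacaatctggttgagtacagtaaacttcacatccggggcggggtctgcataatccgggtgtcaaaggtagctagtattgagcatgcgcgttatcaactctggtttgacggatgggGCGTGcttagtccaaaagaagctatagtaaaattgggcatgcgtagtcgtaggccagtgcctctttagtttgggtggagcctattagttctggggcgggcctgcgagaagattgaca
Over a window of 300 bases, from 250 before to 50 after the start, RefSeq entries matched 32 of the 34 members with 49 windows. ACGTG was in 51.0% of the member windows, against 19.6% of all 32851 windows and 24.6% of the 13668 windows of tested genes. GCGTG was in 55.1% of the member windows, against 32.4% of all windows and 48.6% of those of tested genes. Either motif was in 75.5% of the member windows and in 60.0% of those of tested genes. Its share was 68.4% in the windows of HIF targets and 80.0% in those of glycolysis genes. Some genes had several windows, which could overlap. Counted by gene, either motif was found for 29 of the 32 members and for 7054 of 10699 tested genes. The 3 members with neither motif in any window were Gpi1, Tpi1 and Vldlr. These are matches of letters and not measured binding sites.

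The estimated counts summed to between 16734741 and 17950195 per library. Of 12 colorectal epithelial markers in the tables, 9 (Epcam, Krt8, Krt18, Krt20, Cdh17, Cdx1, Vil1, Lgr5 and Muc2) were under 1 TPM, a unit scaled for gene length and depth, in every library. The other 3 were Krt19, which reached at most 1.48 TPM, Cdh1, from 1.71 to 6.46 TPM, and Lgals4, from 7.54 to 23.1 TPM, and the 12 markers together summed to between 14.1 and 29.1 TPM. Skeletal muscle transcripts were uneven: the 15 muscle markers summed to 495 TPM in control replicate 1, 341 in low-dose replicate 3 and 892 in high-dose replicate 2, and to between 7.1 and 78.8 TPM in the other 9 libraries. High-dose replicate 1 stood apart in its red blood cell markers, which summed to 1612 TPM against 45.8 to 266.9 TPM in the other 11 libraries. Low-dose replicate 2 stood apart in another way, with deviations from the mean of all libraries that ran against transcript length (r = -0.43 across genes, against -0.13 to 0.22 in the other 11 libraries). Replicates of each group differed by more than counting noise (chi-square per gene of 6.34 to 77.1 over pairs of replicates). In whole-tumour RNA, fewer cells of a type and less RNA per cell cannot be told apart.

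On the TPM scale, which allows levels of different genes to be compared, the 5 most abundant members were enzymes of lower glycolysis. Gapdh averaged 3742 TPM over the 12 libraries, Eno1 2392, Pkm 2209, Ldha 1522 and Pgk1 1140.2, followed by Aldoa of upper glycolysis at 1094. Among the HIF targets, Ndrg1 averaged 268 TPM, Vegfa 209 and Bnip3 175. The lowest members were Aldoc at 2.88 TPM and Adm at 2.99. The 18 glycolysis genes together took between 1.04% of all TPM in low-dose replicate 1 and 1.92% in low-dose replicate 3, so the extremes of the study lay within a single group. Gapdh, Pgk1, Eno1, Aldoa, Ldha, Pkm, Tpi1 and Pgam1 have near-identical processed copies in the mouse genome, so their values are uncertain to the extent that reads were split among copies.

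No member passed the test in any of the 6 comparisons between groups (edgeR quasi-likelihood test, Benjamini-Hochberg adjusted p under 0.05 over all genes tested), and neither did any other gene. DESeq2 called no member either, where it called 0.00745% of all genes for stress against control, 0.707% for low dose against stress, 0% for high dose against stress, 0.0372% between the doses, 0.561% for low dose against control and 0.00745% for high dose against control. The smallest adjusted p of any member was 0.319, for Ankrd37 between the low dose and stress. What the members did show was a shared pattern over libraries that cut across the groups. In log2 CPM, where CPM are counts scaled to library size, 3 of the 34 members in stress replicate 1 lay above their own mean over the 12 libraries. In stress replicate 3 and in low-dose replicate 1, 2 members each did. In stress replicate 2, in contrast, 30 members lay above their mean, as did 33 in control replicate 2 and 32 in low-dose replicate 3. The high-dose libraries were split as well, with 4, 27 and 6 members above their mean in replicates 1, 2 and 3.

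**Figure D1:**
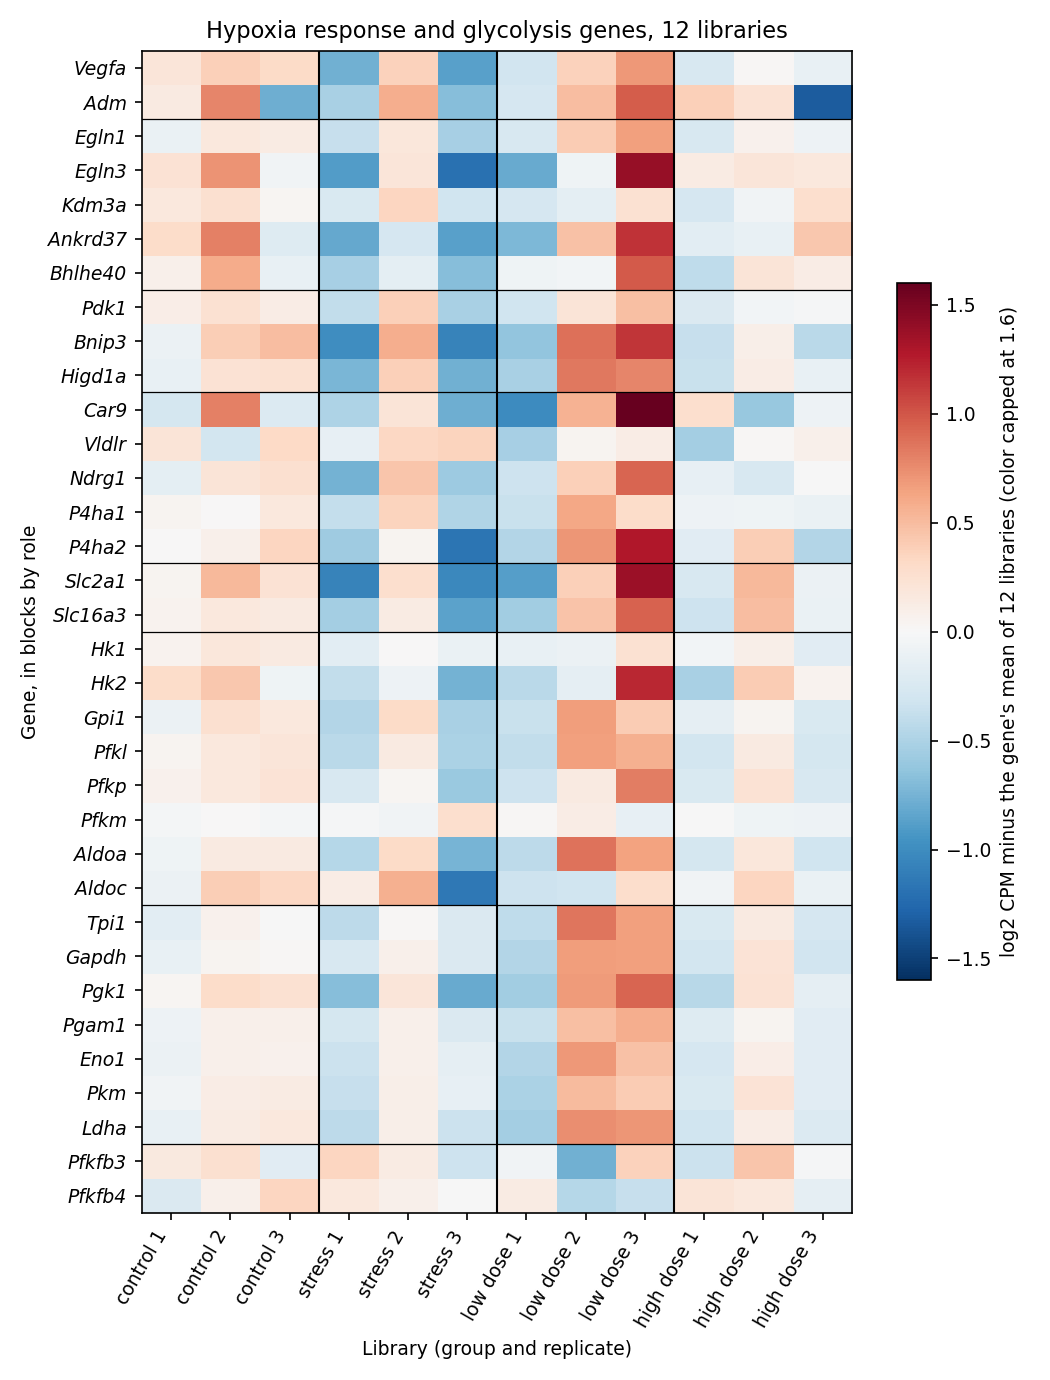
Log2 CPM (counts scaled to library size) of each of the 34 members, minus that gene's mean over the 12 libraries, with libraries in columns by group and genes in rows by role. Stress replicates 1 and 3, low-dose replicate 1 and, less deeply, high-dose replicates 1 and 3 are low across most rows. Stress replicate 2, control replicate 2, low-dose replicates 2 and 3 and, less strongly, control replicate 3 and high-dose replicate 2 are high. Vldlr, Pfkm, Pfkfb3 and Pfkfb4 depart from the pattern.

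Averaging the centred log2 CPM of the 16 HIF targets gave each library a HIF target score. It was 0.05, 0.37 and 0.08 in the control libraries, -0.60, 0.26 and -0.70 in the stress libraries, -0.48, 0.38 and 0.88 in the low-dose libraries and -0.17, 0.04 and -0.10 in the high-dose libraries. In this score the stress and low-dose groups each held both high and low libraries, while the control and high-dose groups were narrow. The pooled standard deviation (SD) within groups was 0.445, and the SD of the 4 group means was 0.27. The former is a spread of single libraries and the latter of means of 3 libraries, so their sizes are not directly comparable. The same score over the 18 glycolysis genes was -0.03, 0.17 and 0.12 in control, -0.27, 0.12 and -0.41 in stress, -0.34, 0.32 and 0.52 at the low dose, and -0.23, 0.20 and -0.18 at the high dose. Its pooled SD within groups was 0.293 and the SD of its group means 0.158. The high-dose group was not narrow in the glycolysis score, with an SD of 0.232 against 0.276 in stress and 0.101 in control. On a log2(TPM + 1) scale the HIF target score of low-dose replicate 2, the library with the length trend, was 0.10 and its glycolysis score 0.06.

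**Figure D2:**
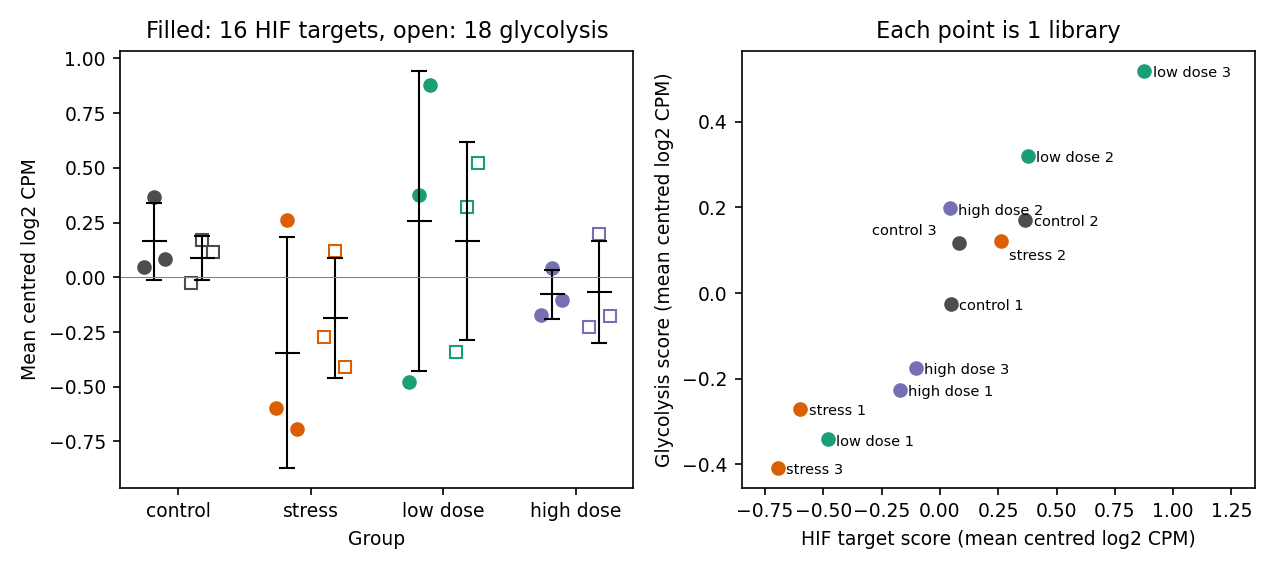
Left, HIF target score (filled circles) and glycolysis score (open squares) of each library, as mean centred log2 CPM, with the mean and SD of the 3 libraries in each group. Right, both scores of the 12 libraries against each other; stress replicates 1 and 3 and low-dose replicate 1 sit at the lower left and low-dose replicate 3 at the upper right.

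The members varied more between libraries than most genes, and the part of that variance lying within groups was close to that of other genes. The median SD of log2 CPM over the 12 libraries was 0.507 for the HIF targets and 0.368 for the glycolysis genes, against 0.213 for all genes tested. The share of that variance lying within groups had a median of 71.5% for the HIF targets, 72.4% for the glycolysis genes and 73.5% for all genes tested. Car9 spanned the widest range, 6.27-fold from the lowest to the highest library, followed by Egln3 at 6.02-fold, P4ha2 at 5.48-fold and Slc2a1 at 5.4-fold. Pfkm (1.32-fold) and Hk1 (1.34-fold) spanned the narrowest. In CPM, the lowest library was stress replicate 3 for 19 members and low-dose replicate 1 for 6. The highest was low-dose replicate 3 for 18 members and low-dose replicate 2, the library with the length trend, for 10. Of those 10, Higd1a, Pfkl, Gapdh, Pkm and Ldha were highest in low-dose replicate 3 in TPM, and P4ha1 in stress replicate 2. Over the 12 libraries, the correlation of deviations with transcript length had r = -0.391 with the HIF target score.

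Among the secreted signals, Vegfa, the growth factor that drives new vessels (chr17:46016993-46032377), was at 379, 432 and 409.8 CPM in the control libraries, 195, 428 and 181 in stress, 269.8, 429 and 536 at the low dose and 279, 335 and 306 at the high dose. Stress replicates 1 and 3 were the lowest libraries of the study, while stress replicate 2 lay within the control range. The 3 high-dose libraries lay below all 3 controls. The log2 fold change was -0.60 ± 0.31 (standard error, SE) for stress over control, 0.62 ± 0.31 for low dose over stress and 0.19 ± 0.31 for high dose over stress. Adm, which encodes the vasodilator adrenomedullin, was low, between 0.697 CPM in high-dose replicate 3 and 3.43 CPM in low-dose replicate 3, and its groups all overlapped.

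The oxygen sensors and regulators include Ankrd37, an ankyrin repeat protein whose gene is a long-known HIF target (chr8:45996908-46000414). It was at 12, 17.1 and 8.47 CPM in the control libraries, 5.54, 8.1 and 5.38 in stress, 5.96, 13.6 and 21.9 at the low dose and 8.67, 9.05 and 13.2 at the high dose. All stress libraries lay below all control and all high-dose libraries, and low-dose replicate 1 lay within the stress range. The log2 fold change was -0.98 ± 0.41 (SE) for stress over control (edgeR adjusted p = 1), 1.12 ± 0.41 for low dose over stress (edgeR adjusted p = 0.319) and 0.70 ± 0.41 for high dose over stress (edgeR adjusted p = 1). Exons of Ankrd37 overlap those of Lrp2bp and Ufsp2 on the opposite strand, and whether the counting used strand is not given in the sources used here.

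Bhlhe40, a transcriptional repressor induced by hypoxia and other signals (chr6:108660629-108666925), was at 83.3, 119 and 73 CPM in control, 54.8, 70.8 and 49.4 in stress, 75.4, 76.6 and 156 at the low dose and 59.7, 91.1 and 85.7 at the high dose. The stress libraries lay below all control and all low-dose libraries and overlapped the high-dose ones. Its log2 fold change was -0.66 ± 0.30 (SE) for stress over control and 0.82 ± 0.30 for low dose over stress, and low-dose replicate 3 was well above every other library. The prolyl hydroxylases Egln1 and Egln3, themselves HIF targets that restrain HIF, ranged from 86.0 to 196 CPM and from 19.8 to 119 CPM, each lowest in stress replicate 3 and highest in low-dose replicate 3. Kdm3a, a histone demethylase, spanned a narrower range, between 87.9 and 139 CPM.

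In CPM, the mitochondrial members were all lowest in stress replicate 3, and highest in low-dose replicate 2 (Higd1a) or 3 (Bnip3 and Pdk1). Higd1a, a small inner-membrane protein of the respiratory chain (chr9:121848557-121857796), was at 43.1, 54.9 and 55.3 CPM in control, 28, 60.7 and 27.4 in stress, 32.6, 84.1 and 80.3 at the low dose and 36.4, 50.8 and 43.1 at the high dose. Its low-dose libraries 2 and 3 were the highest of all and replicate 1 was near the low stress libraries, so all groups overlapped. Bnip3, which promotes removal of mitochondria, ran from 64.8 CPM in stress replicate 3 to 299.5 in low-dose replicate 3. Pdk1, the kinase that keeps pyruvate out of mitochondria by inhibiting pyruvate dehydrogenase, was at 94.7, 104 and 95.2 CPM in control and 74.5, 84.7 and 86.3 at the high dose, groups that did not overlap. Its stress libraries, at 66.8, 114 and 61.1 CPM, spanned both.

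At the cell surface, Car9, the carbonic anhydrase that handles acid outside the cell and a widely used hypoxia marker (chr4:43507026-43513729), was at 14, 29.8 and 14.6 CPM in control, 12.1, 19.6 and 9.91 in stress, 8.43, 25 and 52.8 at the low dose and 20.4, 11.2 and 16 at the high dose. The lowest and the highest library of the study were both in the low-dose group. Its log2 fold change was -0.49 ± 0.57 (SE) for stress over control and 1.05 ± 0.57 for low dose over stress, SEs among the widest of the members.

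P4ha2, a subunit of collagen prolyl hydroxylase (chr11:54100924-54131668), was at 74.3, 78.3 and 93.9 CPM in control, 49.9, 76 and 32.8 in stress, 53.3, 120.4 and 179.7 at the low dose and 65.3, 97 and 53.6 at the high dose. All groups overlapped. P4ha2 had the largest fold change of the members between low dose and stress, 1.16 ± 0.42 on the log2 scale (SE, edgeR adjusted p = 0.32). Its partner gene P4ha1 was at 341, 331 and 371 CPM in control and 312, 315 and 306 at the high dose, where the libraries were close together and just below control. Ndrg1, a stress-induced cytoplasmic protein, ran from 229.8 CPM in stress replicate 1 to 735 in low-dose replicate 3. Vldlr, the very low density lipoprotein receptor, ran from 45.7 to 85.5 CPM and was highest in stress replicate 3, the library where 19 other members were lowest.

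Glucose enters and lactate leaves through the products of Slc2a1 and Slc16a3. Slc2a1 (chr4:119108745-119137330) was at 114, 159 and 129.8 CPM in control, 52.8, 134 and 54.1 in stress, 60.3, 144 and 285 at the low dose and 93, 159 and 104 at the high dose. The libraries near the bottom were stress replicates 1 and 3 and low-dose replicate 1, and low-dose replicate 3 was the highest by a wide margin. Its log2 fold change was -0.75 ± 0.51 (SE) for stress over control and 1.03 ± 0.52 for low dose over stress, with all groups overlapping. Slc16a3, the lactate exporter typical of glycolytic cells (chr11:120948484-120959000), was at 65.9, 71.2 and 69.6 CPM in control, 43.3, 69.2 and 34.9 in stress, 42.9, 87 and 122 at the low dose and 50.5, 89 and 58.9 at the high dose. It repeated the order of Slc2a1 with smaller differences, -0.49 ± 0.36 and 0.77 ± 0.36 in the same comparisons.

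In upper glycolysis, Pfkl, the liver form of phosphofructokinase, the main control point of the pathway (chr10:77986947-78009807), was at 183, 201 and 203 CPM in control, 132, 196 and 125 in stress, 135, 280 and 263 at the low dose and 145, 196 and 147 at the high dose. Low-dose replicates 2 and 3 exceeded every other library and replicate 1 was among the lowest. For Hk1, Hk2 and Pfkp the stress libraries lay wholly below the control libraries. Hk1, the constitutive hexokinase, was at 183, 200 and 195 CPM in control and 157, 178 and 164 in stress, a log2 difference of -0.21 ± 0.12 (SE). Hk2, the inducible hexokinase, was at 84.6, 93.4 and 65.9 in control and 52.5, 65.3 and 40.7 in stress (-0.62 ± 0.40), and the platelet phosphofructokinase Pfkp at 122, 132 and 136 and 98.6, 119 and 78 (-0.40 ± 0.25). The gaps between the nearest libraries were small beside the spread within the groups. Aldoa, the main aldolase, ran from 448 CPM in stress replicate 3 to 1366 in low-dose replicate 2, and Gpi1, glucose phosphate isomerase, from 304 to 695 CPM in the same libraries. Pfkm, the muscle form of phosphofructokinase, stayed between 49.2 and 65 CPM and was highest in stress replicate 3. Aldoc, a minor aldolase, stayed at or below 5.65 CPM.

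Lower glycolysis holds the reactions that yield ATP and the step to lactate. Pgk1, phosphoglycerate kinase (chrX:106187100-106203699), was at 992, 1190 and 1142 CPM in control, 602, 1110.2 and 553 in stress, 658, 1554 and 1844 at the low dose and 709, 1139.5 and 877 at the high dose. Ldha, which turns pyruvate into lactate (chr7:46842274-46855627), was at 1058, 1260.3 and 1296 CPM in control, 860.3, 1228 and 906 in stress, 786, 1929 and 1876 at the low dose and 924, 1246 and 992 at the high dose. Tpi1, triosephosphate isomerase (chr6:124810586-124814158), was at 486, 575 and 543, 408, 554 and 465, 411, 989 and 862 and 460.4, 605 and 453 CPM in the same order. In all 3 genes, low-dose replicates 2 and 3 were the highest libraries and low-dose replicate 1 was at or near the level of stress replicate 1.

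The log2 fold change of low dose over stress was 0.84 ± 0.36 (SE) for Pgk1, 0.62 ± 0.28 for Ldha and 0.66 ± 0.26 for Tpi1, with edgeR adjusted p of 0.361, 0.373 and 0.336. Gapdh, the dehydrogenase often used as a reference gene, was not steady here: it ran from 1739 CPM in low-dose replicate 1 to 3842 in low-dose replicate 2. Pgam1 (mutase), Eno1 (enolase) and Pkm (pyruvate kinase) ran over 1.91-fold, 2.24-fold and 2.02-fold from the lowest to the highest library. For each of them the lowest was low-dose replicate 1 and the highest another low-dose library. Exons of Gapdh, Tpi1, Aldoa, Pfkm and Pfkp overlap a protein-coding gene on the opposite strand.

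**Figure D3:**
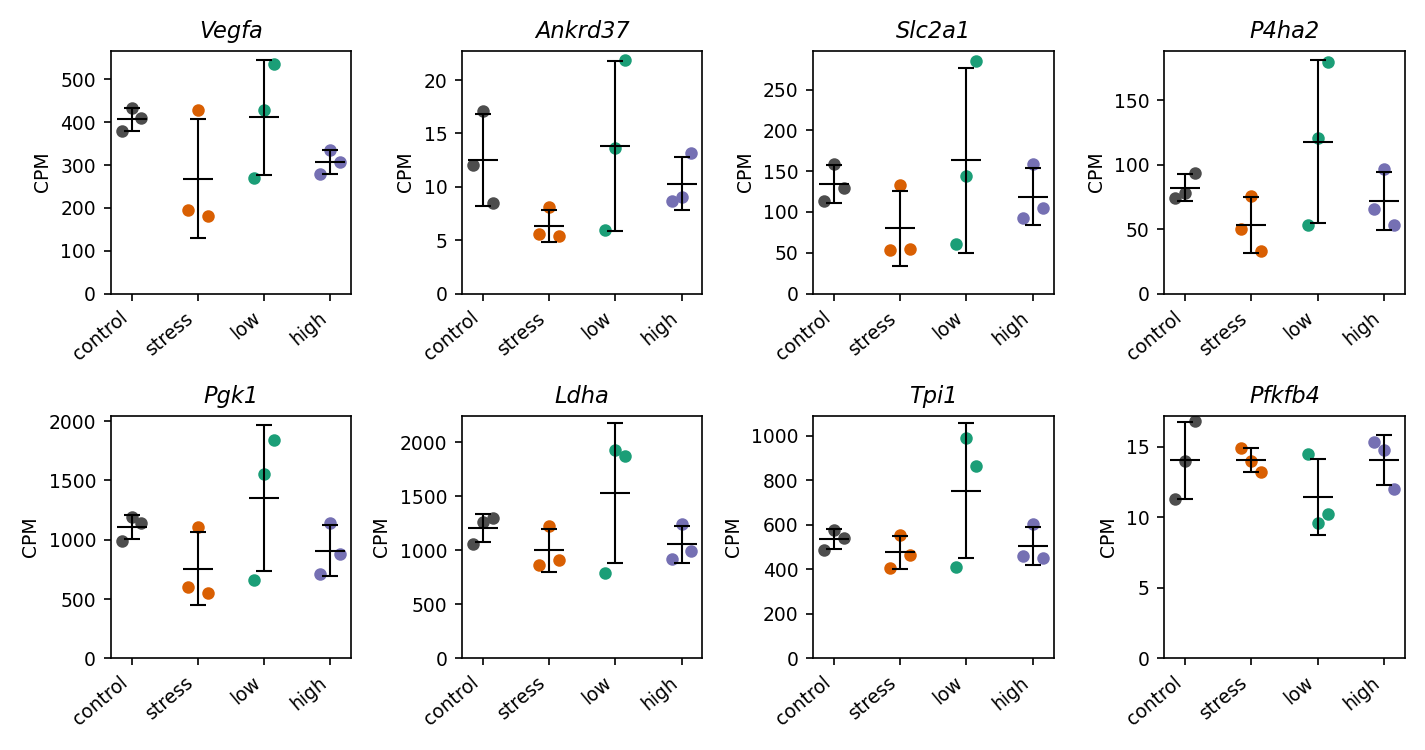
CPM of 8 members in each library by group, with the mean and SD of the 3 libraries as horizontal marks and bars. The stress groups of Vegfa, Slc2a1 and Pgk1 hold a pair of low libraries and a library at the control level, the low-dose groups hold a low library and a pair of high ones, and Pfkfb4 has the reverse low-dose arrangement.

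The bifunctional regulators Pfkfb3 and Pfkfb4 make and break down a sugar phosphate that activates phosphofructokinase, and they did not share the pattern. Pfkfb4 (chr9:108988272-109032236) was at 11.3, 14 and 16.8 CPM in control, 14.9, 14 and 13.2 in stress, 14.5, 9.6 and 10.2 at the low dose and 15.3, 14.8 and 12 at the high dose. Its lowest libraries were low-dose replicates 2 and 3, where most other members were highest. The log2 fold change of low dose over stress was -0.29 ± 0.19 (SE, edgeR adjusted p = 0.502). Pfkfb3 was lowest in low-dose replicate 2, at 11.4 CPM, and highest in high-dose replicate 2, at 26.4.

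Chronic stress against control asks what the stress did to the untreated tumour. Of the 16 HIF targets 15 had a lower fitted level under stress, and of the 18 glycolysis genes 17 did, where 48.3% of all genes did. The other 2 members were higher, as were 51.7% of all genes. The median log2 fold change was -0.44 for the HIF targets and -0.22 for the glycolysis genes, against 0.01 for all genes. The edgeR test called 0 members, and 0% of all genes. At an unadjusted p under 0.05, 1 member was lower, Ankrd37, against 1.75% of all genes, and none was higher, against 1.1%. All 3 stress libraries lay below all 3 control libraries for 5 members (Ankrd37, Bhlhe40, Hk1, Hk2 and Pfkp), against 7.02% of all genes. The medians depended on stress replicate 2: without it they were -0.82 and -0.38, and without stress replicate 3 they were -0.25 and -0.15.

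The low dose against stress asks whether the decoction altered stressed tumours. The fitted level was higher at the low dose for 15 of 16 HIF targets and 14 of 18 glycolysis genes, where it was for 49.9% of all genes. For the other 5 members it was lower, as for 50.1% of all genes. The median log2 fold change was 0.69 for the HIF targets and 0.49 for the glycolysis genes, against -0.00 for all genes. Here too 0 members passed the edgeR test, where 0% of all genes did. At an unadjusted p under 0.05, 8 members were higher (Ankrd37, P4ha2, Bhlhe40, Tpi1, Egln1, Pgk1, Pfkl and Ldha) and none was lower, against 6.8% of all genes higher and 6.55% lower. The groups were apart for 1 member, Bhlhe40, higher at the low dose, against 5.37% of all genes higher and 6.57% lower.

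The low-dose comparison turned on which low-dose libraries entered it. Without low-dose replicate 1, the edgeR test called 13 members, all higher at the low dose, where it called 4.66% of all genes higher and 4.47% lower. They were Tpi1, Ldha, Pgam1, Gapdh, Eno1, Ankrd37, Pfkl, P4ha2, Pgk1, Egln1, Aldoa, Slc16a3 and Pkm, with edgeR adjusted p from 0.0202 for Tpi1 to 0.0498 for Pkm. Tpi1 had a log2 fold change of 0.96 ± 0.16 (SE) in that fit and Ldha 0.93 ± 0.17. Each library was left out in turn, and members were called only in this fit. The library left out, low-dose replicate 1, lay near stress replicates 1 and 3 in both scores, so these calls describe low-dose replicates 2 and 3 only. Without low-dose replicate 3, which was rich in muscle transcripts, the medians were 0.33 and 0.30, and without the 3 muscle-rich libraries together they had the same values. With the muscle score as a covariate they were 0.66 and 0.44, and with each library's trends in transcript length and GC content removed they were 0.65 and 0.46.

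**Figure D4:**
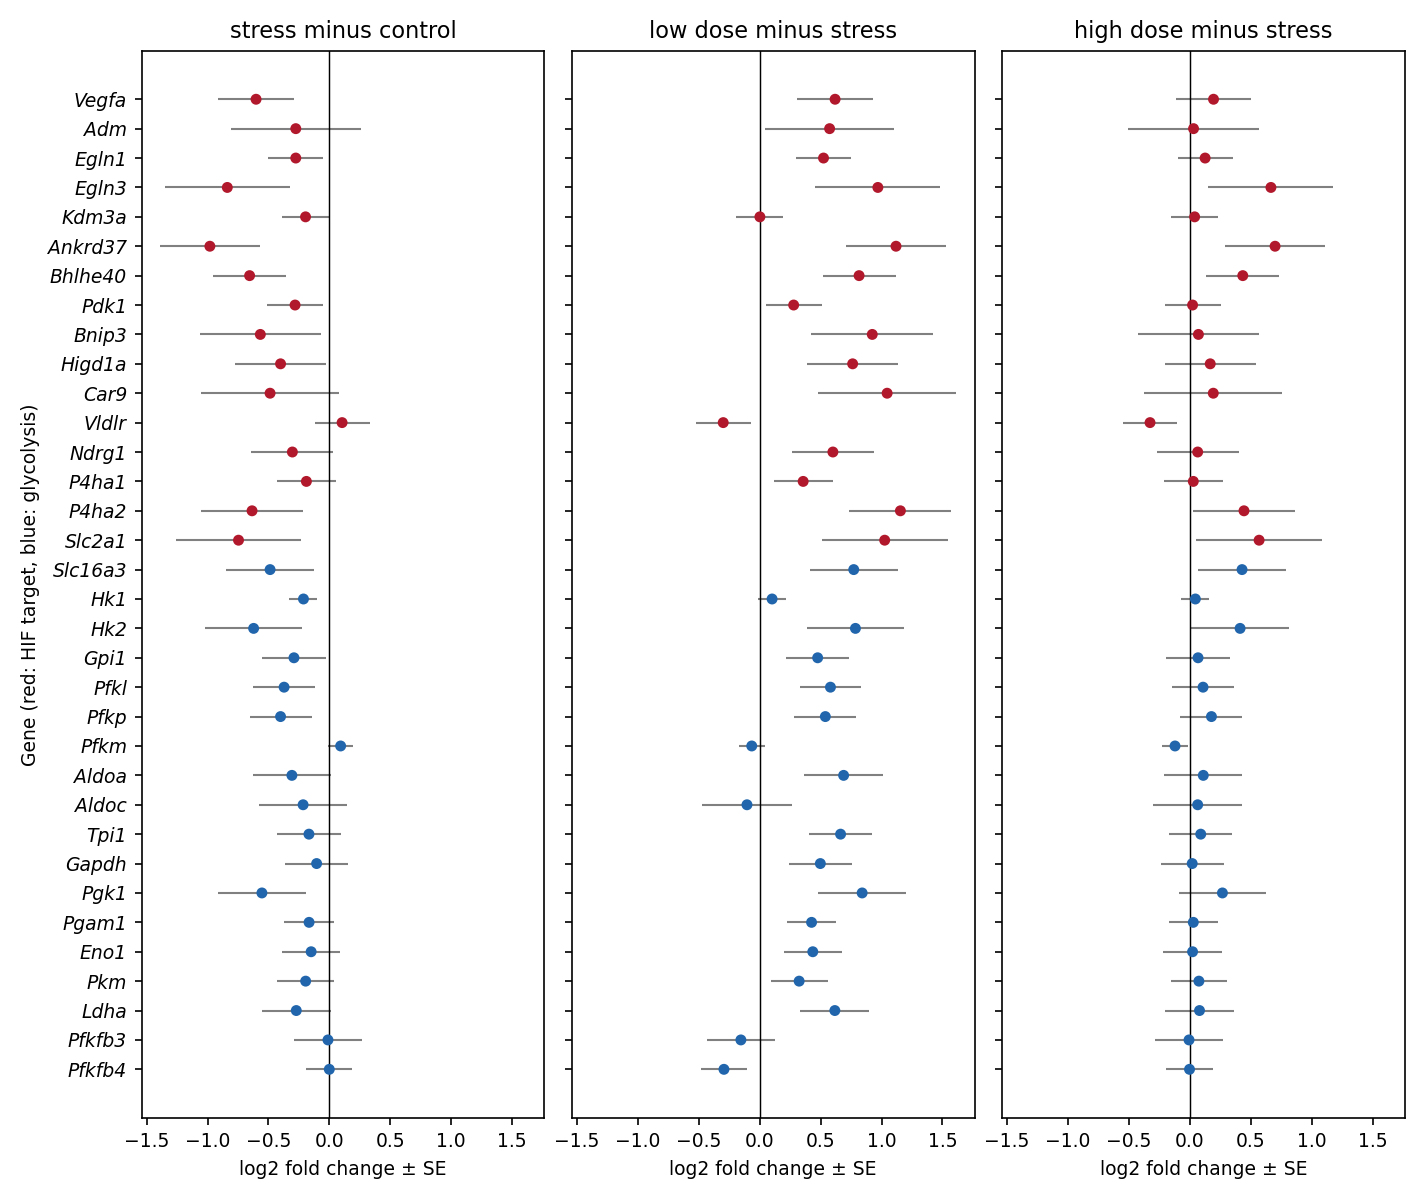
Log2 fold change with its SE for each of the 34 members in 3 comparisons, HIF targets in red and glycolysis genes in blue, from the edgeR fit of all 12 libraries. Points lie mostly left of 0 for stress over control, right of 0 for low dose over stress and close to 0 for high dose over stress; the first comparison shares its stress libraries with both others.

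The high dose against stress shares the stress libraries with both comparisons above, so its values are given beside them and not as separate evidence. The fitted level was higher at the high dose for 15 of 16 HIF targets and 15 of 18 glycolysis genes, against 48.9% of all genes, and lower for the other 4 members, against 51.1%, but the sizes were small: the medians were 0.15 and 0.07, against -0.00 for all genes. The edgeR test called none (0% of all genes), and none had an unadjusted p under 0.05, against 0.825% of all genes higher and 0.595% lower. The groups were apart for Ankrd37 only, higher at the high dose, against 2.43% of all genes higher and 3.32% lower. Slc2a1 had a log2 fold change of 0.57 ± 0.51 (SE), P4ha2 0.44 ± 0.42, Slc16a3 0.43 ± 0.36 and Pgk1 0.27 ± 0.36. The medians changed sign when stress replicate 3 (HIF targets, -0.02) or high-dose replicate 2 (glycolysis genes, -0.06) was left out. All 4 red blood cell genes tested had a higher fitted level at the high dose than in stress (median 2.00 on the log2 scale, none past the edgeR test). Without high-dose replicate 1, the library rich in these transcripts, the member medians were 0.18 and 0.16 against stress, -0.33 and -0.31 against the low dose and -0.16 and -0.08 against control.

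Between the doses, the fitted level was lower at the high dose for 15 of 16 HIF targets and 15 of 18 glycolysis genes, against 49.2% of all genes. The medians were -0.42 and -0.39. None passed the edgeR test, where 0% of all genes did, and 1 member was lower at an unadjusted p under 0.05, Tpi1 at -0.57 ± 0.26 on the log2 scale (SE, edgeR adjusted p = 0.758), against 3.64% of all genes lower and 2.75% higher. Ldha was at -0.54 ± 0.28, Car9 at -0.85 ± 0.56 and Slc2a1 at -0.46 ± 0.51. No member had groups apart, where 3.18% of all genes were lower and 4.16% higher in all high-dose libraries. Without low-dose replicate 1, Tpi1 passed (-0.87 ± 0.16, edgeR adjusted p = 0.0456), where 0.44% of all genes were called lower and 0.286% higher, and without low-dose replicate 3 the sign of Slc2a1 turned, to 0.22.

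Against control, the low dose under stress had a higher fitted level for 13 of 16 HIF targets and 14 of 18 glycolysis genes, against 50.5% of all genes, with medians of 0.21 and 0.20. Not a member passed the edgeR test (0% of all genes did) or had an unadjusted p under 0.05, against 6.45% of all genes higher and 6.73% lower, and no member had groups apart, against 7.65% higher and 9.74% lower. Without low-dose replicate 1 the test called Tpi1 (0.79 ± 0.16 on the log2 scale, edgeR adjusted p = 0.0303) and Gapdh (0.68 ± 0.17, edgeR adjusted p = 0.0444), where 2.49% of all genes were called higher. With all libraries, Tpi1 was at 0.50 ± 0.26 and Gapdh at 0.39 ± 0.26. Without low-dose replicate 3 the HIF target median was -0.21.

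The high dose under stress, set against control, had a lower fitted level for all 16 HIF targets and all 18 glycolysis genes, against 49.5% of all genes. The medians were -0.23 and -0.15. No member passed the edgeR test (0% of all genes did) and none had an unadjusted p under 0.05, against 0.58% of all genes higher and 0.461% lower. Vegfa, P4ha1 and Pdk1 were lower in every high-dose library than in every control library, against 4.93% of all genes, with log2 fold changes of -0.41 ± 0.31 (SE), -0.16 ± 0.24 and -0.26 ± 0.23. The 34 signs are not independent observations, since the members varied together from library to library.

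How closely they did so was measured by Pearson correlation of log2 CPM over the 12 libraries, which share groups and are given as a description. The median r was 0.776 over the 120 pairs of HIF targets, 0.648 over the 153 pairs of glycolysis genes and 0.701 over the 288 pairs between the sets, against -0.00 over all pairs of genes tested. After the group means were taken away, the medians were 0.761, 0.669 and 0.685, close to those before. The HIF target and glycolysis scores had r = 0.951 over the 12 libraries. With the mean of the other HIF targets, Pgk1 had r = 0.966, Slc2a1 0.965, Egln1 0.962, Pdk1 0.953, Vegfa 0.951 and Bnip3 0.95. The members that did not follow were Vldlr (r = 0.155), Pfkfb3 (0.165), Pfkfb4 (-0.492) and Pfkm (-0.513), and Adm, Aldoc and Kdm3a followed loosely (0.643, 0.593 and 0.684).

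**Figure D5:**
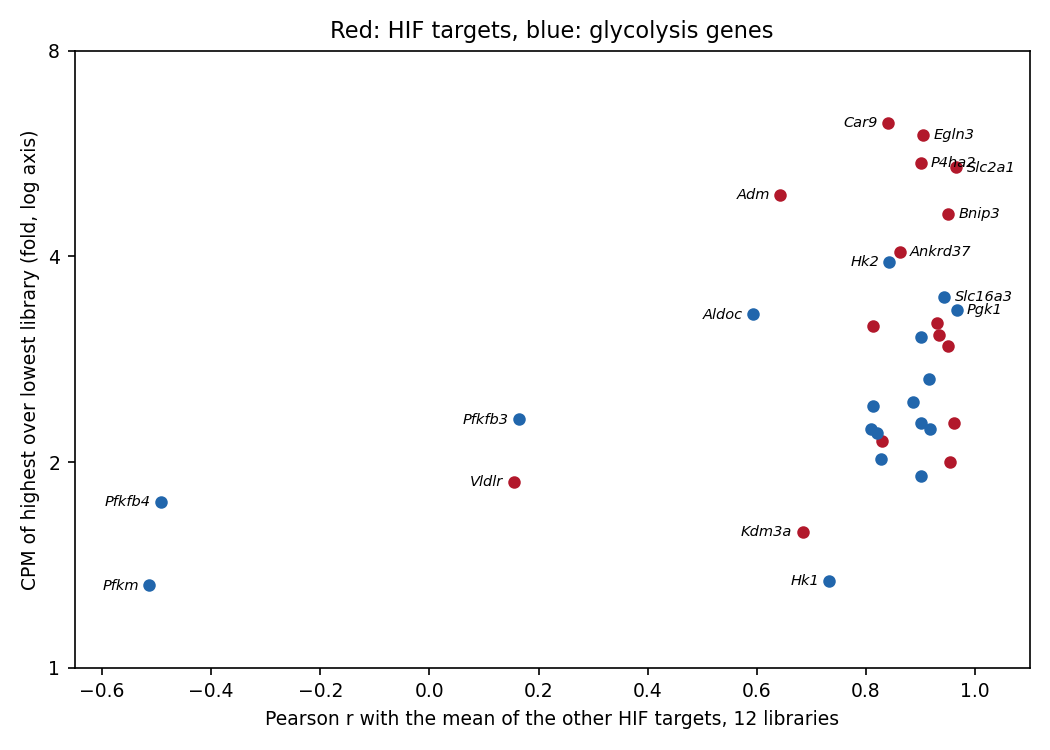
For each member, Pearson r with the mean of the other HIF targets over 12 libraries (horizontal) against the fold from its lowest to its highest library in CPM (vertical, log axis), HIF targets in red and glycolysis genes in blue. Most members lie at the right with r above 0.8, Car9 has the widest range, and Pfkm, Pfkfb4, Vldlr and Pfkfb3 lie to the left.

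Isozyme shares, taken from TPM within each enzyme family, showed which gene supplied each step. Aldoa made up at least 99.6% of aldolase transcripts and Ldha at least 99.7% of lactate dehydrogenase transcripts in every library. Hk1 held 68.8% ± 2.1 (SD, n = 3) of hexokinase transcripts in control, 71.6% ± 6.3 in stress, and means of 64.1% and 66.7% at the low and the high dose. Hk2 held 21.0% ± 3.0 in control and 16% ± 2.1 in stress. Of the phosphofructokinase transcripts Pfkm held 17.1% ± 0.7 in control and 23.0% ± 6.0 in stress, running from 11.6% in low-dose replicate 3 to 29.1% in stress replicate 3. Of the monocarboxylate carriers Slc16a3 held 57.9% ± 2.3 in control and 48.4% ± 12.6 in stress, from 36.3% in stress replicate 3 to 68.4% in low-dose replicate 3, while most of the rest was the broadly expressed Slc16a1. Egln3 held 26.9% of prolyl hydroxylase transcripts in control and 17.3% in stress on average. These shares were not tested between groups.

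The wider pathway was read from lists of genes outside the 34. Of the other HIF targets, 32 genes tested, 23 had a lower fitted level under stress than in control (median -0.15 on the log2 scale), against 48.3% of all genes. At the low dose 23 had a higher fitted level than in stress (0.15), against 49.9% of all genes. None passed the edgeR test. DESeq2 called 1 gene of the list between the low dose and stress, Plod1, a collagen lysyl hydroxylase, which also had the smallest unadjusted edgeR p of the list. It was at 183, 209.6 and 211 CPM in control, 157, 185 and 165 in stress, 211, 226 and 225 at the low dose and 187, 207 and 183 at the high dose. Its low-dose libraries all exceeded its stress libraries, as for 5.37% of all genes, and its log2 fold change was 0.38 ± 0.10 (SE, edgeR adjusted p = 0.296). Lox, which crosslinks collagen, had a fold change of 2.97 ± 0.95 on the log2 scale (edgeR adjusted p = 0.302) that leaned on low-dose replicate 3, at 115 CPM against 19.0 and 15.2 in the other low-dose libraries. Plod2 was at 0.52 ± 0.18 (edgeR adjusted p = 0.309).

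The HIF machinery itself showed no common direction. Of 14 genes tested, 8 were higher under stress than in control and 7 were higher at the low dose than in stress, with medians of 0.06 and 0.01 on the log2 scale. Between low dose and stress, Eloc, a subunit of the von Hippel-Lindau ubiquitin ligase, was at 0.34 ± 0.11 (SE), the coactivator Ep300 at -0.38 ± 0.14 and Arnt2, a relative of Arnt, at -1.24 ± 0.48, none past the edgeR test (adjusted p from 0.296 to 0.325). Hif1a, singled out after its values were seen as the central subunit, was at 166, 174 and 171 CPM in control and 142, 151 and 137 in stress, groups that did not overlap, with a log2 difference of -0.25 ± 0.18 (SE, edgeR adjusted p = 1). Eloc was also lower in every stress library than in every control library (-0.11 ± 0.11), while Egln2, a prolyl hydroxylase (0.20 ± 0.15), and Hif1an, the asparaginyl hydroxylase that blocks coactivator binding (0.16 ± 0.09), were higher in every stress library. Of all genes, 7.02% lay wholly lower under stress and 7.08% wholly higher. The score of the 14 genes had r = -0.547 with the HIF target score over the 12 libraries, and that of the 32 other HIF targets had r = 0.91.

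Branches of glucose metabolism were read in the same way. All 7 pentose phosphate genes had a higher fitted level at the low dose than in stress (median 0.27 on the log2 scale), against 49.9% of all genes. Taldo1, transaldolase, was at 0.38 ± 0.12 (SE), Pgd, phosphogluconate dehydrogenase, at 0.34 ± 0.11 and Rpe, ribulose phosphate epimerase, at 0.27 ± 0.09, each with an edgeR adjusted p of 0.304. Under stress 4 of the 7 were lower than in control. Of 13 genes of pyruvate entry into mitochondria, 11 were higher at the low dose than in stress (median 0.14), Pdk3 at 0.48 ± 0.16 and Mpc2, a subunit of the mitochondrial pyruvate carrier, at 0.44 ± 0.16 (edgeR adjusted p = 0.304 and 0.316). The widest value of that list was Pdk4 at 1.32 ± 1.76 (edgeR adjusted p = 0.758). The 15 other glycolytic isozymes and carriers had a median of 0.00 in that comparison, with Bsg, a chaperone of the lactate carriers, at 0.41 ± 0.18. The 2 gluconeogenic genes tested had a median of 0.15. No gene of these lists passed the edgeR test in any comparison.

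Markers of other cells moved with the HIF target score to differing degrees over the 12 libraries. Their score had r = 0.269 for the 15 skeletal muscle genes, 0.197 for 8 cell division genes, -0.147 for 8 immediate early genes, -0.172 for 8 T and NK cell, -0.26 for 4 red blood cell, -0.315 for 7 endothelial, -0.353 for 9 macrophage and -0.382 for 8 fibroblast genes. Lists with few tested genes reached larger values, with r = 0.607 for 3 colorectal epithelial genes (Cdh1, Lgals4 and Muc2), -0.415 for 1 neutrophil gene (Csf3r) and -0.661 for 1 adipocyte gene (Fabp4). Summed macrophage markers ran from 1181 to 1331 TPM in control, 1166 to 1756 in stress, 1015 to 2155 at the low dose and 1115 to 2045 at the high dose. Summed fibroblast markers ran from 2270 to 3144 TPM in control, 4063 to 5073 in stress, 1949 to 7226 at the low dose and 1679 to 6644 at the high dose. In low-dose replicate 1, where most members were low, both sums were the highest of the study. The part of these cell types in the members' values was not tested.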

How the data were processed

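Poly(A) RNA of 12 tumour samples was sequenced from both ends as stranded libraries, per the labels' protocols. The submitters' processing notes list cutadapt 1.9, HISAT2 2.0.4, StringTie 1.3.4d, DESeq2 and edgeR, with the genome build GRCm38.p6, and the annotation and counting options are not given in the sources used here. The authors deposited estimated counts per gene without scaling (11.74% to 12.49% of values per library were not whole), which were rounded here. The deposited FPKM and TPM values had been scaled to gene length and to depth by the authors. TPM was used for levels and isozyme shares, and FPKM to check those shares. The columns of each library's table were all used, and 26 gene symbols that had turned into dates were restored.

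Counts of all 12 libraries and 4 groups entered 1 fit in edgeR 4.0.16 (R 4.3.3) with TMM scaling, a filter at a minimum count of 10 (filterByExpr), robust quasi-likelihood tests with 8 residual degrees of freedom and Benjamini-Hochberg adjustment over 13453 genes, 2-sided, at 0.05. The code was tested on simulated data. Over genes, log2 fold changes had a median SE of 0.164. CPM are TMM-scaled, and scores average log2 CPM (prior count 2) after centring. Alternatives were RLE scaling, DESeq2 1.42.0, limma 3.58.1 (voom with quality weights), other filters, a fit of the 6 libraries at hand, a block for the replicate number, a muscle score covariate, removal of length and GC trends (loess), and leaving out each library.

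The rule for named genes gave all 34 members, with values per library for Vegfa, Car9, Slc2a1, Ldha, Pgk1 and the member of smallest p in each role. Library values of Bhlhe40, Hk1, Hk2, Pfkp, Pdk1 and P4ha1 were given outside the rule. Each of these had groups that did not overlap in some comparison. The rule added up to 3 genes of smallest p from each pathway list. The members, lists, rule and tests were chosen with earlier results of these data known. The design assumed whole counts. Replicate numbers did not pair the samples: libraries sharing a number had correlations of -0.45 to 0.42 between their deviations from group means over 18 pairs.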

Additional observations from a re-analysis of the deposited data

How the results depend on the processing

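Members passed the adjusted test only in 3 of the 6 comparisons and only without low-dose replicate 1, and their number was then 13 for low dose against stress (0 to 13 over the libraries left out in turn), 1 for high dose against low dose (0 to 1) and 2 for low dose against control (0 to 2). In that fit 4.66% of all genes were called higher and 4.47% lower for low dose against stress. The shares were 0.286% and 0.44% for high dose against low dose, and 2.49% and 2.3% for low dose against control. Taking an unadjusted edgeR p under 0.05 together with a log2 fold change of 1 or more in size, 2 members counted in low dose against stress. The share of all genes under that joint rule is not given here, so the count is not read as a result about the members. With the replicate number as a block, 0 members passed in any comparison, and the medians for low dose against stress were 0.74 for the HIF targets and 0.46 for the glycolysis genes. DESeq2, limma, RLE scaling and the other filters called 0 members in every comparison. Without the 3 libraries richest in muscle transcripts, the HIF target median for low dose against control was -0.24 in place of 0.21, and Car9 between the doses was 0.13 in place of -0.85. The sign also turned for Vegfa between high dose and stress without stress replicate 3 (-0.012, with a range up to 0.703 without stress replicate 2) and for Slc2a1 between the doses without low-dose replicate 3 (0.22, against -0.85 without low-dose replicate 1). The cause was not tested. Of 1416 alternative values, 1398 kept their sign and their side of the threshold or stayed within the spread between replicates. A value that turned sign within that wide spread was still counted among these, so the number does not measure how stable the results were.

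Leaving out libraries in turn, the HIF target median ran from -0.82 to -0.25 for stress against control, 0.33 to 1.1 for low dose against stress, -0.02 to 0.57 for high dose against stress, -0.73 to -0.13 between the doses, -0.21 to 0.50 for low dose against control and -0.29 to -0.14 for high dose against control. With 3 libraries per group and a within-group SD near 0.445 in the HIF target score, differences of the sizes seen here could not be told from the spread between libraries. Depth limits Adm and Aldoc most, the members with the lowest counts.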

Other observations

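Genes outside all lists whose log2 CPM followed the HIF target score most closely were sought among 9838 genes with a mean log2 CPM of at least 3. Of these, 121 genes (1.23%) had r above 0.8 over the 12 libraries and 71 (0.722%) had r below -0.8. The 10 highest were Npepps (r = 0.966), Pgm2 (0.949), Sdc4 (0.935), Mras (0.922), Hilpda (0.917), Unc13a (0.91), Slc22a4 (0.908), Map2k1 (0.906), Pvr (0.898) and Pbdc1 (0.897). Pgm2 encodes a phosphoglucomutase, and Hilpda a lipid droplet protein known to be induced by hypoxia. Hilpda was at 13.5, 17.8 and 13.2 CPM in control, 9.8, 12.4 and 8.94 in stress, 10.3, 20.5 and 32.7 at the low dose and 10.5, 17.1 and 12.5 at the high dose. Its stress libraries lay below all its controls, as for 7.02% of all genes, and its low-dose replicate 1 was near the stress libraries.

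The 5 genes that ran most against the score were Pik3r1 (r = -0.921), Cyb5rl (-0.918), Bcl2 (-0.907), Zfp955b (-0.906) and Dab2ip (-0.902). Bcl2, which encodes a protein that blocks apoptosis, was at 25.1, 23.9 and 22.8 CPM in control, 38.7, 24.4 and 33.5 in stress, 28.4, 20.6 and 18.7 at the low dose and 31.4, 23.4 and 26.0 at the high dose. Pik3r1, a regulatory subunit of phosphoinositide kinase, ran over 2.03-fold. These genes were chosen by the correlation itself, which is a description over 12 libraries that share groups.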
